A study of Mus musculus with 8 samples.

Results

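Cholesterol and fatty acid synthesis was followed through 33 genes, taken by symbol from the deposited count table of 21812 symbols. The list holds 7 enzymes of the mevalonate pathway, 11 that make squalene and turn it into cholesterol, and 9 enzymes of fatty acid synthesis. It also holds 1 sterol transfer protein and 5 genes, called regulators below, that encode the SREBP transcription factors or proteins controlling them. All 33 passed the filter on low counts, which left 14229 genes for testing. Total RNA was sequenced from mouse embryonic stem cells under conditions that drive them towards primitive endoderm, an extraembryonic lineage of the early embryo. The 8 libraries fall into 4 groups of 2, labelled WT and cKO for Mettl3 and WT and cKO for Virma (Mettl3 WT, for example). Both genes encode parts of the N6-methyladenosine writer of RNA, Mettl3 its catalytic enzyme and Virma a scaffold. No label says how a cKO was made, how many clones it stands for, or whether the 2 libraries of a group came from separate cultures, so p-values rest on library-to-library spread alone, which may be purely technical.

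Total counts ran from 15568628 to 17306227 per library. The 2 Virma cKO libraries agreed within sampling noise over 14680 genes together (chi-square per degree of freedom 0.914, against 1.31 to 2.84 in the other pairs), although not in the 505 genes with the highest counts (3.46). They were counted as 1 sample, so this group has no SD. Levels are in CPM, counts divided by library size after scaling between libraries with edgeR's TMM factors, and differences are log2 fold changes ± SE. The targeted genes were examined first. Mettl3 itself had 35.7 and 35.2 CPM in Mettl3 WT, and 35.4 and 33.9 CPM where the label is Mettl3 cKO (−0.04 ± 0.07, edgeR adjusted p = 0.695), so its level does not separate these labels. Virma fell from 91.0 ± 3.24 CPM in Virma WT to 72.3 CPM where the label is Virma cKO (−0.33 ± 0.06, edgeR adjusted p = 0.000102). In the same comparison Mettl3, not the gene named in these labels, went down as well, from 45.05 ± 1.11 to 33.8 CPM (−0.42 ± 0.09). Its level also differed between Virma WT and Mettl3 WT (0.34 ± 0.07). The fall of Virma is therefore no check of the label on its own. The labels do not name the deleted part of either gene.

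Cells build cholesterol from acetyl-CoA through mevalonate, isoprenoid units, squalene and lanosterol, and build fatty acids from citrate-derived acetyl-CoA through malonyl-CoA. Transcription of both routes is driven by the SREBP factors, encoded by Srebf1 and Srebf2. When sterols are low, Scap escorts SREBPs from the endoplasmic reticulum to the Golgi for cleavage, and Insig1 and Insig2 hold Scap back when sterols are plentiful. SREBP binds sterol regulatory elements close to the start site, commonly beside boxes for NF-Y and Sp1.

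The RefSeq promoter table (build GRCm38.p6, another build than the authors' and used here only for these windows) held 26 of the 33 members, in 34 windows of 250 bases before a start site. Sqle, Fdps, Fdft1, Fads1, Scd1, Scd2 and Stard4 were not in it. The windows of 5 members that carry the pattern of the results are printed 5′ to 3′, ending at the base before the start site. Hmgcs1 (chr13:119690101-119690350, plus strand), Mvd (chr8:122443423-122443672, minus strand), Insig1 (chr5:28071162-28071411, plus strand) and Fasn (chr11:120824548-120824797, minus strand) encode transcripts that fell in both cKO groups, and Scap (chr9:110333106-110333355, plus strand) the one that rose in both. Capitals mark matches to the sterol regulatory element TCACNCCAC and to the NF-Y box CCAAT, read on either strand (CCAAT reads as ATTGG on the other).
Hmgcs1: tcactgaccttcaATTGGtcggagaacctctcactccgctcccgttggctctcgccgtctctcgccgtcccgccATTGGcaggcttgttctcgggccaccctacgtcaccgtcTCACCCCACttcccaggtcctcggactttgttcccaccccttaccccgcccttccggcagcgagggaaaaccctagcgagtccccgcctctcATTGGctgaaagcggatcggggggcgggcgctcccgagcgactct
Mvd: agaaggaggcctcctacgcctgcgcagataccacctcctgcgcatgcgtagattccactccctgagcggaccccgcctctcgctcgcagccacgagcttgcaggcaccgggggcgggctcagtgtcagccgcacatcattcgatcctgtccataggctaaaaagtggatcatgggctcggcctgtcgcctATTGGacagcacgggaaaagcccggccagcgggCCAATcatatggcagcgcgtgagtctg
Insig1: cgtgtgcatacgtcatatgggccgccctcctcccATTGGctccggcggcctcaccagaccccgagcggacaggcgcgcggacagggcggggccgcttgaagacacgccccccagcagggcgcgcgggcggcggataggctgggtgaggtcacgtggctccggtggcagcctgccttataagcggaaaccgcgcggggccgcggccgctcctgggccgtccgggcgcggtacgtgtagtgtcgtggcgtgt
Fasn: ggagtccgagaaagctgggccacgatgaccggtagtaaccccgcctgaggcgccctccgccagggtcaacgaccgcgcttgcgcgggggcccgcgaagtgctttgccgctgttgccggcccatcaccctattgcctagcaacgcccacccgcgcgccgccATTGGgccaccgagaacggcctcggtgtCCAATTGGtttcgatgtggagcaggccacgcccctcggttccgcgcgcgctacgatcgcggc
Scap: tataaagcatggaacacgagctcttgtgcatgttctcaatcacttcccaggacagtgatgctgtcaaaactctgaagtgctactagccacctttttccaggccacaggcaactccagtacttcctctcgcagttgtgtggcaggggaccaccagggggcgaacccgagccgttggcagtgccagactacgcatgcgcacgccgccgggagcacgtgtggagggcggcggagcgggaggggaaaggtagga

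The Hmgcs1 window was the only one of the 34 with the TCACNCCAC letters (2.94%, against 346 of 32851 windows of all genes, 1.05%). CCAAT was found in 21 of the 34 windows (61.8%, against 33.8% of all windows) and in 20 of the 26 members. GGGCGG, the Sp1 box, was found in 25 windows (73.5%, against 32.7%) and in 22 members. Both strands were searched and each motif was counted on its own, whether or not it overlapped another. The printed windows are a selection: the NF-Y box is also missing from the windows of Acat2, Acly, Elovl6 and Fads2, which fell in both cKO groups. It is missing from that of Acaca too, and present in that of Hsd17b7, which was called in neither. A match is a description of these letters, and the absence of one says only that they are not in that window.

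**Figure D1:**
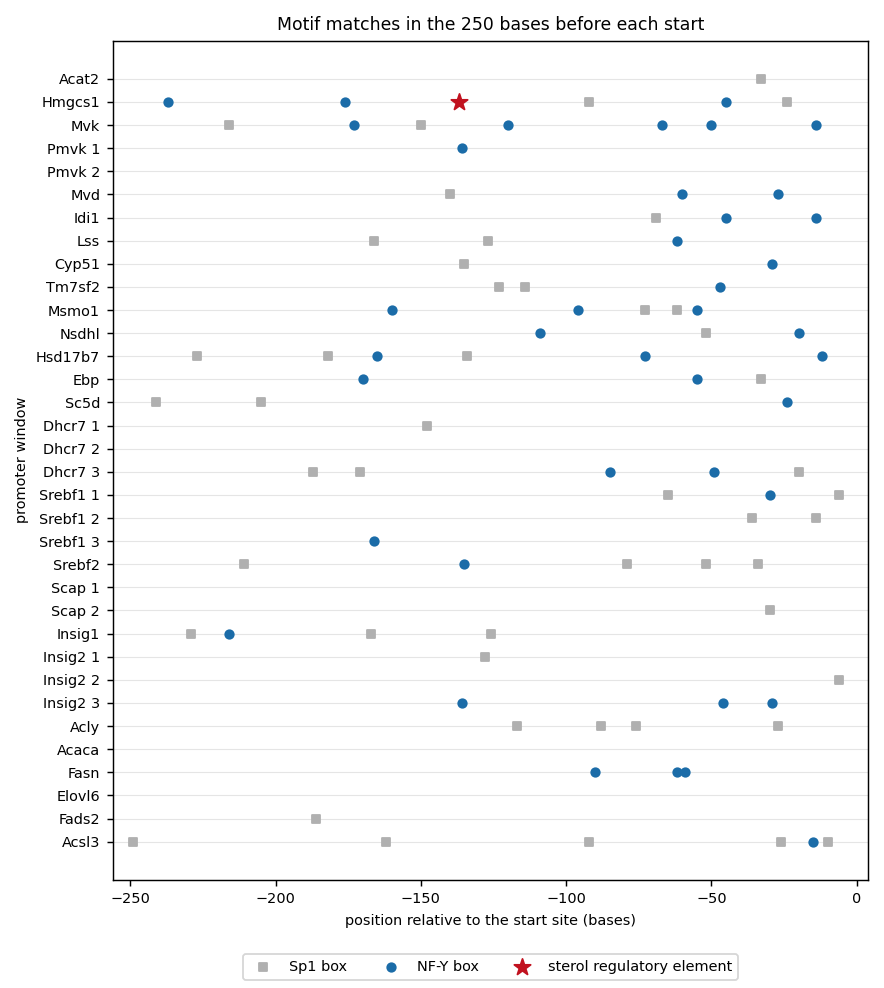
Positions of the sterol regulatory element, NF-Y box and Sp1 box matches in the 250 bases before the start site (x axis, bases from the start) for the 34 windows of 26 members (y axis). CCAAT matches occur in 21 windows, GGGCGG in 25 and TCACNCCAC in the Hmgcs1 window only.

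Levels spanned a wide range. Per kilobase of the longest annotated transcript, and averaged over the 8 libraries, the highest level was that of Scd2, a desaturase that makes monounsaturated fatty acids, at 191.5 CPM per kb. Acly, which makes cytosolic acetyl-CoA from citrate, followed at 107.7 CPM per kb. Fdft1 and Fasn both stood at 76.8, Scd1 at 66.3 and Hmgcs1 at 61.5 CPM per kb. The lowest were Insig2 at 3.77, Hsd17b7 at 3.13 and Fdps at 1.27 CPM per kb. Fdps, which encodes farnesyl diphosphate synthase, had only 28 to 124 counts per library, and its exons share 1124 bases with Gm43738 on the same strand, so its values are uncertain. Exons of Tm7sf2 (with Vps51) and Acsl3 (with Utp14b) also overlap a gene on the same strand, and those of Fdft1 (Ctsb), Cyp51 (Akap9), Srebf1 (Rai1), Hmgcs1 (Gm48342), Lss (4930483K19Rik), Idi1 (Gm48574) and Elovl6 (Gm35986) a gene on the opposite strand. The longest overlap with the opposite strand, 985 bases, is that of Scap with 5830462I19Rik. No label names the strand setting of the counting, so reads of such pairs cannot be told apart.

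Summed over the 33 genes the level was highest in Mettl3 WT and lowest in Virma cKO. The sums were 7391 to 7414 CPM in Mettl3 WT, 5523 to 5568 in Mettl3 cKO, 5951 to 6020 in Virma WT and 3720 to 3724 in Virma cKO, and no 2 groups overlapped. Of the 33 genes, 22 had their highest group mean in Mettl3 WT and 29 their lowest in Virma cKO. The exceptions at the low end were Insig2 (lowest in Mettl3 WT), Sc5d and Hsd17b7 (lowest in Mettl3 cKO) and Scap (lowest in Virma WT). In these bulk samples, fewer cells of a type and less RNA per cell cannot be told apart.

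**Figure D2:**
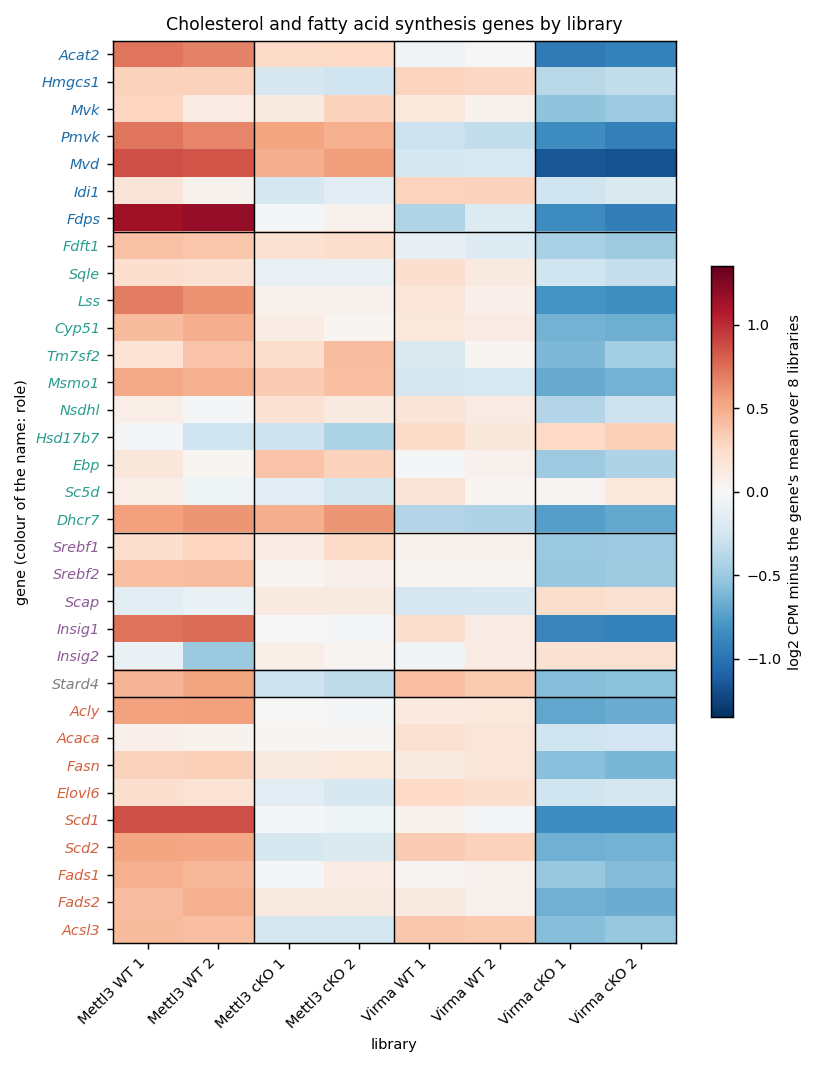
Level of each of the 33 genes (rows, grouped by role) in each of the 8 libraries (columns), as log2 CPM minus the gene's mean over the libraries. Most rows are highest in Mettl3 WT (22 of 33 by group mean) and lowest in Virma cKO (29 of 33).

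The comparison of Virma cKO with Virma WT asks how these genes stand when this subunit of the writer complex is targeted. In Virma cKO 28 of the 33 genes fell, 1 rose and 4 did not pass (quasi-likelihood test of edgeR, Benjamini-Hochberg adjusted p under 0.05 over all genes). Among all genes tested 52.3% passed, 26.1% lower and 26.2% higher. The median difference was −0.57 over the 33 genes and 0.02 over all genes, and the ratio of Virma cKO to Virma WT at the members' median was 0.672. All 9 fatty acid synthesis enzymes fell (median −0.75), as did 6 of 7 mevalonate pathway enzymes (−0.62), 9 of 11 squalene and sterol enzymes (−0.45), 3 of 5 regulators (−0.53) and Stard4. In 29 genes both Virma cKO libraries lay below both Virma WT libraries, in 3 they lay above, and in 1, Sc5d, they overlapped. Among all genes tested the shares were 40.2% below, 44.3% above and 15.5% overlapping. The differences at single genes were modest: none but Insig1 fell by a log2 of more than 1.

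Scaling by total counts instead of TMM moved the median of all genes in this comparison to 0.15 and the calls over all genes from 3721 higher and 3718 lower to 4967 higher and 2624 lower (65.4% higher). The members moved up along with all genes: their median went from −0.573 to −0.445, with 27 lower and 1 higher.

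Of the mevalonate enzymes, Hmgcs1, which condenses acetyl-CoA units into HMG-CoA, stood at 258 and 258 CPM in the Mettl3 WT pair, 179 and 172 CPM in the Mettl3 cKO pair, 256 and 253 CPM in the Virma WT pair and 161 and 166 CPM in the Virma cKO pair. Both cKO pairs were thus well below both WT pairs, which lay close together. The difference in Virma cKO was −0.64 ± 0.04 (edgeR adjusted p = 9.76e-12). Mvd, which makes isopentenyl diphosphate, stood at 121 and 119 CPM in the Mettl3 WT pair, 93.5 and 98.5 CPM in the Mettl3 cKO pair, 56.4 and 57.7 CPM in the Virma WT pair and 29.9 and 29.5 CPM in the Virma cKO pair. No groups of Mvd overlapped, and the 2 WT groups were farther apart than either was from its cKO group. The difference of Mvd in Virma cKO was −0.94 ± 0.08 (edgeR adjusted p = 3.12e-10). Acat2, the thiolase at the head of the route, fell too (−0.91 ± 0.08), as did the kinases Mvk (−0.62 ± 0.12) and Pmvk (−0.57 ± 0.08) and the isomerase Idi1 (−0.54 ± 0.10). Fdps had a difference of −0.60 ± 0.31 and did not pass (adjusted p = 0.117).

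Among the enzymes from squalene onwards, Lss, which folds squalene epoxide into lanosterol, stood at 124 and 117 CPM in the Mettl3 WT pair, 79.9 and 80.1 CPM in the Mettl3 cKO pair, 86.4 and 80.7 CPM in the Virma WT pair and 43.8 and 43.2 CPM in the Virma cKO pair. Its Virma cKO libraries were the lowest, and those of Mettl3 cKO and Virma WT were close to each other. It had the greatest fall of the 11 in Virma cKO (−0.94 ± 0.07, edgeR adjusted p = 7.12e-11). Cyp51, which removes a methyl group from lanosterol, followed (−0.78 ± 0.05). The demethylation enzymes Msmo1 (−0.44 ± 0.05) and Nsdhl (−0.48 ± 0.09), the isomerase Ebp (−0.47 ± 0.09), the squalene epoxidase Sqle (−0.47 ± 0.06), the squalene synthase Fdft1 (−0.32 ± 0.04) and the last enzyme of the route, Dhcr7 (−0.31 ± 0.07), fell as well. Tm7sf2, a sterol reductase, had a change of −0.45 ± 0.15 (edgeR adjusted p = 0.0117), and this call did not hold when replicate 2 of Virma WT was left out (−0.33, adjusted p = 0.129), with DESeq2 (adjusted p = 0.0673) and with total count scaling (adjusted p = 0.0667). Sc5d (−0.02 ± 0.08) and Hsd17b7 (0.09 ± 0.13) did not pass.

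The regulators did not move as one. Insig1, itself a classical SREBP target, stood at 113 and 114 CPM in the Mettl3 WT pair, 68.0 and 66.6 CPM in the Mettl3 cKO pair, 78.4 and 73.1 CPM in the Virma WT pair and 36.4 and 35.8 CPM in the Virma cKO pair. Virma cKO was lowest by far, and Mettl3 cKO lay below Virma WT. Insig1 had the largest fall of the 33 genes in Virma cKO (−1.07 ± 0.07, edgeR adjusted p = 1.44e-11). Srebf2, the factor linked mostly to cholesterol genes, stood at 385 and 388 CPM in the Mettl3 WT pair, 297 and 306 CPM in the Mettl3 cKO pair, 298 and 299 CPM in the Virma WT pair and 205 and 208 CPM in the Virma cKO pair. Mettl3 cKO overlapped Virma WT here, between a higher Mettl3 WT and a lower Virma cKO. In Virma cKO both Srebf2 (−0.53 ± 0.04) and Srebf1 (−0.55 ± 0.06), linked mostly to fatty acid genes, fell.

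Scap, the escort of SREBP, went the other way, with 82.5 and 85.9 CPM in the Mettl3 WT pair, 99.1 and 99.0 CPM in the Mettl3 cKO pair, 77.7 and 78.7 CPM in the Virma WT pair and 108 and 105 CPM in the Virma cKO pair. Both cKO groups lay above both WT groups. It was the 1 member that rose in Virma cKO (0.44 ± 0.06, edgeR adjusted p = 5.39e-07), with the limit that reads of the overlapping gene cannot be told apart, while Insig2 stood at 0.17 ± 0.17 and did not pass. Stard4, a carrier that moves sterols between membranes and is itself induced when sterols are low, stood at 65.1 and 68.3 CPM in the Mettl3 WT pair, 39.1 and 37.3 CPM in the Mettl3 cKO pair, 62.8 and 60.5 CPM in the Virma WT pair and 31.8 and 32.2 CPM in the Virma cKO pair. As with Hmgcs1, the 2 cKO groups lay together below the 2 WT groups. Its difference in Virma cKO was −0.95 ± 0.08 (edgeR adjusted p = 6.4e-10).

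**Figure D3:**
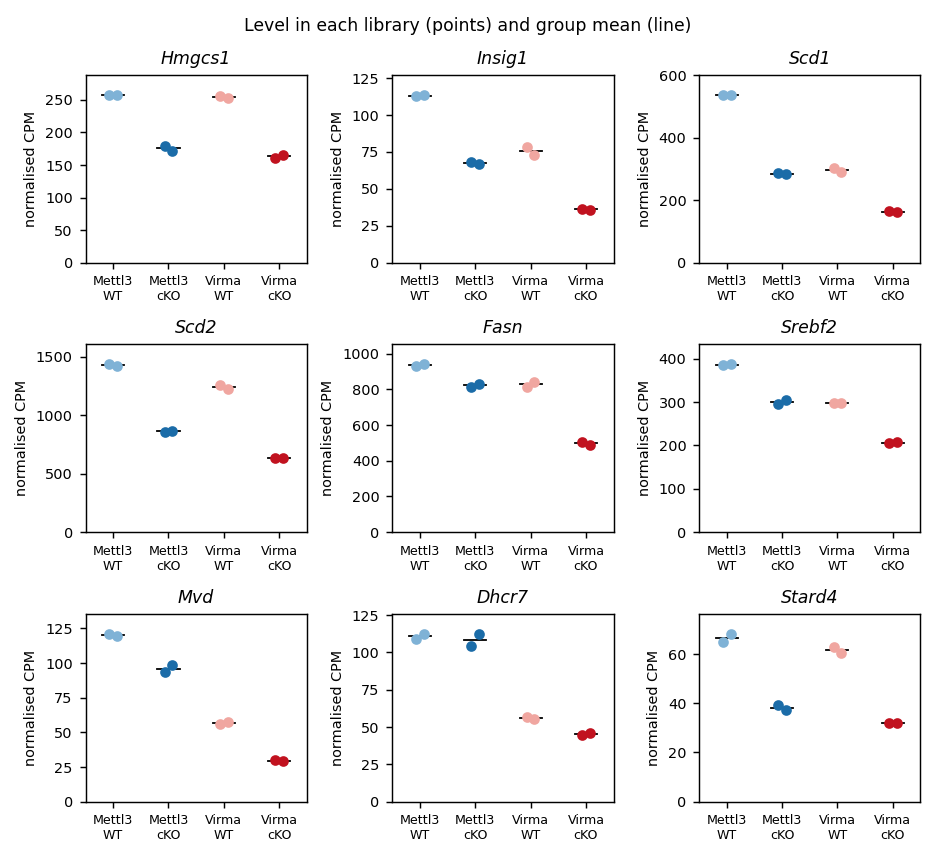
CPM of selected members in each library (points) by group, with a bar at the group mean; each panel has its own y axis starting at 0. Insig1, Stard4 and Scd2 are lower in both cKO groups than in their own WT groups.

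Of the fatty acid enzymes, Fasn, the synthase itself, stood at 933 and 941 CPM in the Mettl3 WT pair, 815 and 829 CPM in the Mettl3 cKO pair, 815 and 843 CPM in the Virma WT pair and 507 and 489 CPM in the Virma cKO pair. Virma cKO stood farthest from the rest. The difference of Fasn there was −0.74 ± 0.03 (edgeR adjusted p = 9.06e-15). Scd1 and Scd2 are paralogous desaturases, so reads could be split between them. Scd1 stood at 537 and 535 CPM in the Mettl3 WT pair, 287 and 282 CPM in the Mettl3 cKO pair, 304 and 291 CPM in the Virma WT pair and 164 and 163 CPM in the Virma cKO pair. Mettl3 WT was the high group of Scd1, and Virma cKO the low one. Scd2 stood at 1438 and 1427 CPM in the Mettl3 WT pair, 859.5 and 868 CPM in the Mettl3 cKO pair, 1260 and 1230 CPM in the Virma WT pair and 635 and 638 CPM in the Virma cKO pair. For Scd2 the 2 WT groups were high and both cKO groups low. In Virma cKO both Scd2 (−0.97 ± 0.03) and Scd1 (−0.87 ± 0.04) fell. Acsl3, which activates fatty acids with CoA (−0.90 ± 0.04), Acly (−0.83 ± 0.04), the front-end desaturases Fads2 (−0.75 ± 0.05) and Fads1 (−0.58 ± 0.06), the elongase Elovl6 (−0.50 ± 0.05) and Acaca, which makes malonyl-CoA (−0.46 ± 0.04), fell too.

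Marker lists moved beside these changes. All 11 primitive endoderm markers were detected and all 11 fell in Virma cKO (median −2.93), their summed level being 6965 to 6989 CPM in Virma WT and 1002 to 1016 CPM in Virma cKO. Of 10 pluripotency markers, none at 0, 7 fell and 1 rose, with sums of 2222 to 2255 and 1374 to 1392 CPM. Of 16 fibroblast markers, none at 0, 15 rose and 1 fell, with sums of 1540 to 1549 and 2308 to 2321 CPM, of which Fn1 held the most counts. Of the 7 hepatocyte and visceral endoderm lipid markers, Apoc1 had 4118 counts over the 8 libraries. The others were near the floor: Cyp7a1 had 0 counts, Alb 2, Afp 14, Apoa4 30, Ttr 59 and Apoa1 80. The 3 that could be tested ranged from −3.03 to 0.74 in Virma cKO, with a median of 0.11. The part of these markers in the fall of the lipid genes was not tested.

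The comparison of Mettl3 cKO with Mettl3 WT puts the same question for the catalytic subunit. Here 23 of the 33 genes fell, 3 rose and 7 did not pass. Among all genes tested 55.1% passed, 28.0% lower and 27.1% higher. The median was −0.32 over the members and 0.01 over all genes, a ratio of 0.802 at the members' median. By role, 8 of 9 fatty acid enzymes fell (median −0.42), 6 of 7 mevalonate enzymes (−0.33) and 6 of 11 squalene and sterol enzymes (−0.17), while of the 5 regulators 2 fell and 2 rose. Both Mettl3 cKO libraries lay below both Mettl3 WT libraries in 25 genes and above in 4, and the pairs overlapped in 4 (36.7%, 38.3% and 25.0% of all genes). Beside this, 9 of 11 primitive endoderm markers fell and 0 rose (sums of 8572 to 8599 against 5457 to 5479 CPM), 14 of 16 fibroblast markers rose and 0 fell (1137 to 1141 against 1311 to 1324 CPM), and 4 of 10 pluripotency markers rose and 5 fell (2148 to 2160 against 2045 to 2096 CPM). Their part in the result was not tested.

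Of the fatty acid enzymes the desaturases Scd1 and Scd2 fell most. Scd1 had a difference of −0.91 ± 0.03 (edgeR adjusted p = 5.58e-17) and Scd2 of −0.73 ± 0.03 (edgeR adjusted p = 9.41e-17). Acsl3 (−0.64 ± 0.03), Acly (−0.56 ± 0.03), Fads1 (−0.42 ± 0.04), Elovl6 (−0.39 ± 0.04) and Fads2 (−0.33 ± 0.04) also fell. Fasn had a change of −0.19 ± 0.03, far less than in Virma cKO, and Acaca stood at −0.04 ± 0.03 and did not pass (adjusted p = 0.343).

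Outside fatty acid synthesis, well counted genes with clear falls included the carrier Stard4, the sensor Insig1 and the early enzyme Hmgcs1. Stard4 had a difference of −0.80 ± 0.06, Insig1 of −0.75 ± 0.05 and Hmgcs1 of −0.55 ± 0.03 (edgeR adjusted p = 1.19e-10, 9.95e-12 and 2.23e-12). Lss (−0.59 ± 0.05), Acat2 (−0.44 ± 0.05), Cyp51 (−0.40 ± 0.04), Srebf2 (−0.36 ± 0.03), Mvd (−0.33 ± 0.05), Sqle (−0.32 ± 0.04), Idi1 (−0.30 ± 0.08), Pmvk (−0.18 ± 0.05) and Fdft1 (−0.17 ± 0.03) fell as well. The weakly counted Fdps stood at 7.19 and 7.42 CPM in Mettl3 WT and 3.19 and 3.39 CPM in Mettl3 cKO (−1.15 ± 0.19). The middle and late enzymes Mvk (0.02 ± 0.08), Nsdhl (0.12 ± 0.07), Tm7sf2 (0.04 ± 0.10), Hsd17b7 (−0.21 ± 0.12) and Dhcr7 (−0.03 ± 0.05) did not pass, nor did Srebf1 (−0.07 ± 0.05).

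Ebp, Scap and Insig2 rose. Ebp, which shifts a double bond of the sterol ring, stood at 47.5 and 43.6 CPM in the Mettl3 WT pair, 55.9 and 53.1 CPM in the Mettl3 cKO pair, 41.9 and 44.6 CPM in the Virma WT pair and 30.5 and 32.0 CPM in the Virma cKO pair. Mettl3 cKO was its highest group and Virma cKO its lowest. The rise of Ebp in Mettl3 cKO was 0.26 ± 0.07 (edgeR adjusted p = 0.00193), that of Scap 0.23 ± 0.05 (edgeR adjusted p = 0.000176). Insig2 rose by 0.34 ± 0.14 (edgeR adjusted p = 0.0499) from 9.47 and 7.12 to 10.7 and 10.3 CPM.

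Several of these calls rested on a setting or 1 library. With a trend of fold change on gene length and GC content removed, Scap (0.06, adjusted p = 0.317), Ebp (0.13, adjusted p = 0.0842), Idi1 (−0.14, adjusted p = 0.133) and Msmo1 (−0.04, adjusted p = 0.397) lost their calls, and Dhcr7 (−0.13, adjusted p = 0.0181) and Srebf1 (−0.23) gained one. Sc5d (0.0048, not called) and Acaca (0.15, called higher) then changed sign. Without replicate 2 of Mettl3 WT Insig2 was no longer called (0.15, adjusted p = 0.36) and Hsd17b7 was (−0.33). The call of Insig2 was also lost without either Mettl3 cKO or either Virma WT library, without replicate 2 of Virma cKO (0.31 to 0.37), with DESeq2 or its size factors and in a fit of the Mettl3 groups alone. Sc5d (−0.22 ± 0.07) lost its call without replicate 1 of Mettl3 WT (−0.14, adjusted p = 0.0859), which gave Nsdhl one (0.18), and with DESeq2. Without replicate 2 of Mettl3 cKO the calls of Sc5d (−0.17, adjusted p = 0.153) and Pmvk (−0.16, adjusted p = 0.0513) were lost and Srebf1 was called (−0.15). Msmo1 (−0.12 ± 0.04) was not called without replicate 1 of Mettl3 cKO (−0.09, adjusted p = 0.119).

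**Figure D4:**
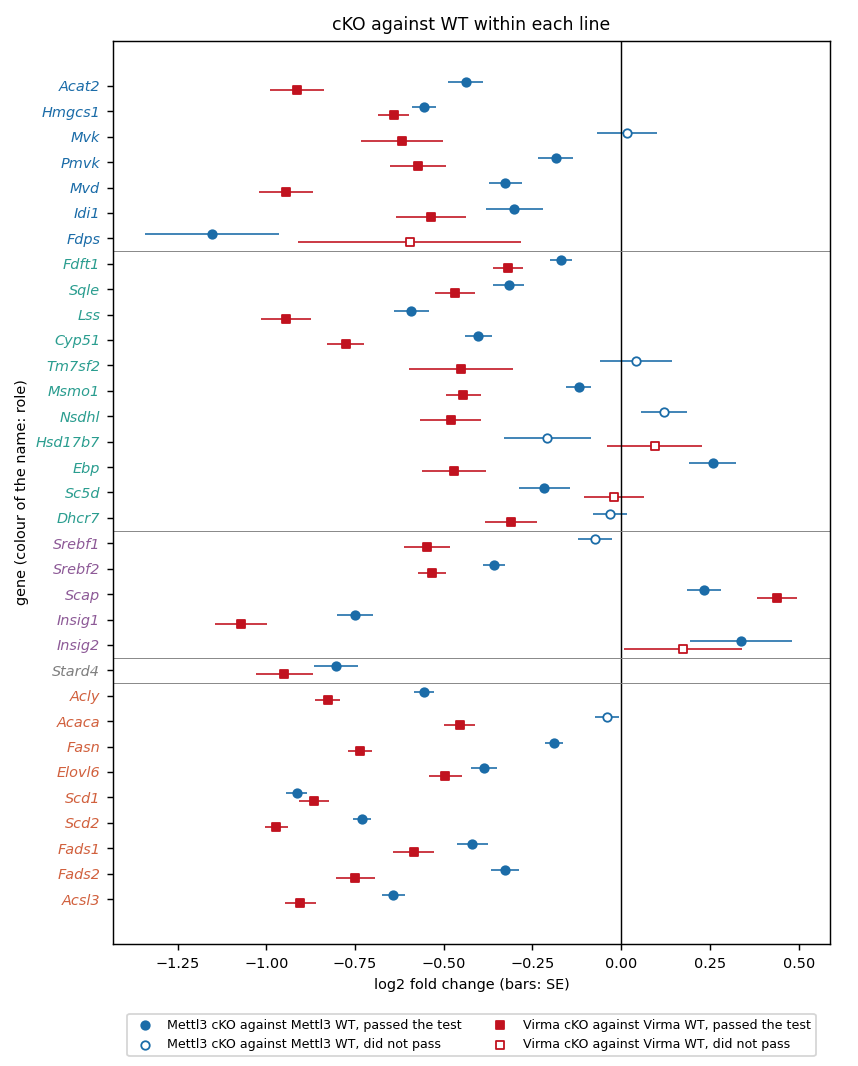
Log2 fold change of each member (bars: SE) in Mettl3 cKO against Mettl3 WT and in Virma cKO against Virma WT, by role. Filled symbols passed the test; 23 members fell in Mettl3 cKO and 28 in Virma cKO.

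The 2 WT groups differed from each other in these genes. Of the 33, 19 were lower and 3 higher in Virma WT than in Mettl3 WT (22.2% and 25.4% of all genes, 47.6% together), with a median of −0.22 against 0.03 over all genes. Both Virma WT libraries lay below both Mettl3 WT libraries in 23 genes and above in 5, and the pairs overlapped in 5 (33.8%, 38.0% and 28.2% of all genes). Beside this, 15 of 16 fibroblast markers were higher and 1 lower in Virma WT (median 1.45, sums of 1137 to 1141 CPM in Mettl3 WT and 1540 to 1549 CPM in Virma WT). Of the 11 primitive endoderm markers 6 were lower and 2 higher (median −0.15, sums of 8572 to 8599 and 6965 to 6989 CPM), and of the 10 pluripotency markers 4 were higher and 3 lower. The part of these markers was not tested. The widest gaps were in Fdps (−1.46 ± 0.20), Mvd (−1.08 ± 0.05), Pmvk (97.7 and 93.5 CPM against 48.5 and 47.0 CPM), Dhcr7 (−0.98 ± 0.05) and Scd1 (−0.85 ± 0.03). Dhcr7 stood at 109 and 112 CPM in the Mettl3 WT pair, 104 and 112 CPM in the Mettl3 cKO pair, 56.6 and 55.6 CPM in the Virma WT pair and 44.5 and 46.1 CPM in the Virma cKO pair. Its 2 Mettl3 groups overlapped at about the same level, well above the 2 Virma groups. Hmgcs1 (−0.02 ± 0.03), Sqle (−0.04 ± 0.04), Acsl3 (−0.05 ± 0.03), Elovl6 (0.04 ± 0.04) and Stard4 (−0.11 ± 0.06) did not pass between the WT groups. Calls of Idi1 as higher (0.19 ± 0.08) were lost without replicate 2 of Mettl3 WT (0.13, adjusted p = 0.169) and without any 1 library of Mettl3 cKO or Virma WT (0.19 to 0.20), and those of Hsd17b7 (0.34 ± 0.11) without replicate 1 of Virma WT (0.29, adjusted p = 0.158) and with replicate 2 of Mettl3 WT left out (0.22, adjusted p = 0.0986). The call of Tm7sf2 (−0.37 ± 0.11) and that of Acaca (0.13 ± 0.03) were lost without replicate 1 of Virma WT (−0.26, adjusted p = 0.144, and 0.10, adjusted p = 0.0605). Without replicate 1 of Mettl3 WT, Insig2 (0.53), Nsdhl (0.16), Sc5d (0.17), Stard4 (−0.15) and Scap (−0.14) were called, and without replicate 2 Mvk (−0.20). The labels do not say what else set the 2 WT groups apart.

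Measured against Virma WT instead of its own WT, Mettl3 cKO showed no common direction. Of the 33 genes 12 were lower and 10 higher (29.2% and 29.3% of all genes, 58.5% together), and the median was 0.01. Beside this, 12 of 16 fibroblast markers were lower and 1 higher, and 7 of 11 primitive endoderm markers were lower and 1 higher, and their part was not tested. The contrasts with either WT share the Mettl3 cKO libraries. Of the 23 genes that fell against Mettl3 WT, 10 were also lower against Virma WT (18.3% of all genes were lower against both), 5 were higher (2.83% of all genes) and 8 did not pass. The 10 were Hmgcs1, Sqle, Idi1, Insig1, Sc5d, Stard4, Acly, Scd2, Elovl6 and Acsl3, with differences from Virma WT between −0.14 (Acly) and −0.69 (Stard4). The 5 that turned were Mvd (0.75 ± 0.05), Pmvk (0.82 ± 0.05), Msmo1 (0.59 ± 0.04), Fdft1 (0.36 ± 0.03) and Acat2 (0.28 ± 0.05). Lss (−0.06 ± 0.05), Cyp51 (−0.07 ± 0.04), Srebf2 (0.01 ± 0.03), Fasn (−0.01 ± 0.03), Scd1 (−0.06 ± 0.03), Fads1 (0.01 ± 0.04), Fads2 (0.03 ± 0.04) and Fdps (0.31 ± 0.22) did not pass. Ebp (0.33 ± 0.07) and Scap (0.34 ± 0.05) were higher than both WT groups. Dhcr7 (0.95 ± 0.05), Tm7sf2 (0.41 ± 0.11) and Srebf1 (0.14 ± 0.05), not called against Mettl3 WT, were higher than Virma WT, and Hsd17b7 (−0.55 ± 0.12) and Acaca (−0.17 ± 0.03) lower. When Virma cKO was set against Mettl3 WT, a contrast chosen after seeing the data, 29 of the 33 genes were lower and 3 higher (30.4% and 32.2% of all genes, 62.5% together), with a median of −0.91.

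**Figure D5:**
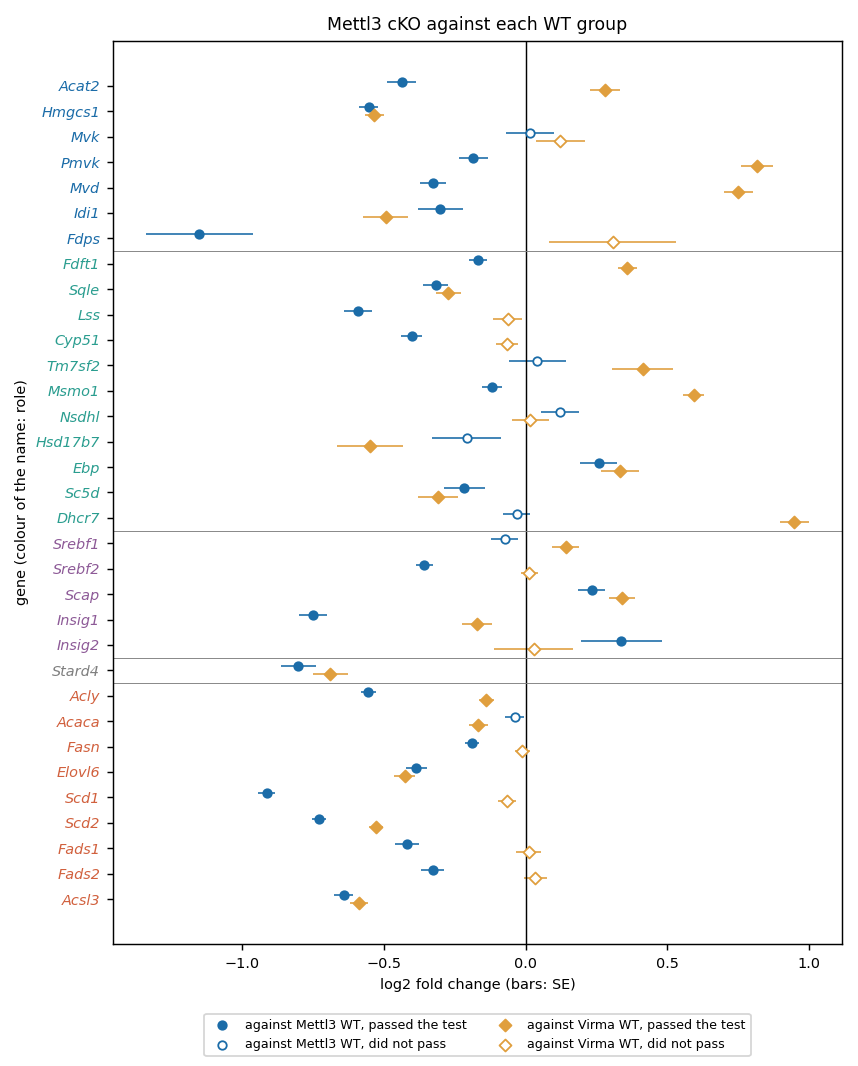
Log2 fold change of each member (bars: SE) in Mettl3 cKO against Mettl3 WT (circles) and against Virma WT (diamonds). Against Virma WT 12 members were lower and 10 higher, and Mvd, Pmvk, Msmo1, Fdft1 and Acat2 passed on opposite sides.

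Set side by side with their own controls, 21 members (63.6%) fell in both cKO groups, against 14.2% of all genes tested, and 1, Scap, rose in both (13.7% of all genes). Dhcr7, Nsdhl, Mvk, Tm7sf2, Srebf1 and Acaca fell in Virma cKO and did not pass in Mettl3 cKO. Fdps and Sc5d fell in Mettl3 cKO and did not pass in Virma cKO. Ebp rose in Mettl3 cKO and fell in Virma cKO (6.76% of all genes were called in opposite directions).

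The difference between the 2 effects was tested directly, as the change in Virma cKO minus the change in Mettl3 cKO, each against its own WT. In 21 of the 33 genes the change was more negative in Virma cKO and in 1, Scap, more positive, against 21.2% and 17.9% of all genes (39.1% together). The median difference between the effects was −0.27, against −0.0048 over all genes. In the same contrast all 11 primitive endoderm markers (median −2.36) and 6 of 10 pluripotency markers were more negative in Virma cKO, 1 pluripotency marker and 7 of 16 fibroblast markers (median 0.27) were more positive, and their part was not tested. It was widest in Ebp (−0.73 ± 0.11, edgeR adjusted p = 1.14e-05), Mvk (−0.63 ± 0.14), Mvd (−0.62 ± 0.09), Nsdhl (−0.60 ± 0.11) and Fasn (−0.55 ± 0.04). By role it passed in 6 of 9 fatty acid enzymes, 4 of 7 mevalonate enzymes, 8 of 11 squalene and sterol enzymes and 4 of 5 regulators. For Scd1 (0.05 ± 0.05), Hmgcs1 (−0.09 ± 0.05), Stard4 (−0.15 ± 0.10), Sqle (−0.15 ± 0.07), Elovl6 (−0.11 ± 0.06) and Fads1 (−0.17 ± 0.07) the difference did not pass. With the length and GC trend removed it did pass for Hmgcs1 (−0.24, adjusted p = 0.000944), Stard4 (−0.41, adjusted p = 0.00239), Sqle (−0.24, adjusted p = 0.00671), Elovl6 (−0.43, adjusted p = 1.59e-06) and Idi1 (−0.38, adjusted p = 0.0233). The same setting ended the calls of Pmvk (−0.06, adjusted p = 0.677), Fdft1 (−0.11, adjusted p = 0.0972), Dhcr7 (−0.16, adjusted p = 0.157) and Tm7sf2 (−0.43, adjusted p = 0.0721). Because the WT groups differ, this test depends on each group's own control: Mvd stood at 120.3 ± 1.21, 96.0 ± 3.48 and 57.0 ± 0.907 CPM in Mettl3 WT, Mettl3 cKO and Virma WT, and at 29.7 CPM in Virma cKO. With scaling by total counts the calls over all genes shifted from 45.8% to 60.3% higher, and Insig1 (−0.22, adjusted p = 0.0516), Srebf2 (−0.08, adjusted p = 0.231), Fdft1, Dhcr7 and Tm7sf2 were no longer called. Sc5d (0.29) and Scd1 (0.15) were then called as more positive in Virma cKO.

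The weakest of these differences depended on single libraries. Scap (0.21 ± 0.07) lost its call without replicate 1 of Mettl3 cKO (0.21, adjusted p = 0.0677), replicate 2 of Mettl3 cKO (adjusted p = 0.0703), replicate 1 of Virma WT (0.20, adjusted p = 0.0903) or replicate 2 of Virma WT (0.22, adjusted p = 0.0664). Tm7sf2 (−0.49 ± 0.18) lost it without replicate 2 of Mettl3 cKO (−0.40, adjusted p = 0.143), replicate 2 of Virma WT (−0.38, adjusted p = 0.179) or replicate 1 of Virma cKO (−0.42, adjusted p = 0.0612). Fdft1 (−0.15 ± 0.05) lost it without replicate 2 of Mettl3 cKO (−0.13, adjusted p = 0.111), replicate 1 of Virma WT (−0.11, adjusted p = 0.137) or replicate 2 of Virma cKO (−0.13, adjusted p = 0.06), and Dhcr7 (−0.28 ± 0.09) without replicate 2 of Mettl3 cKO (−0.22, adjusted p = 0.0777). Calls were gained by Fads1 (−0.18), Idi1 (−0.30), Sc5d (0.27) and Hsd17b7 (0.43) when 1 Mettl3 WT library was left out, by Fads1 without replicate 1 of Mettl3 cKO (−0.23) or of Virma cKO (−0.21), and by Sqle without replicate 2 of Virma WT (−0.20).

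In lists of other lipid genes, calls went in both directions, at shares to be read against 28.0% lower and 27.1% higher over all genes in Mettl3 cKO and 26.1% and 26.2% in Virma cKO. Of 10 further genes of sterol synthesis, 3 fell and 2 rose in Mettl3 cKO, and 3 fell and 2 rose in Virma cKO. Cyb5r3, which supplies electrons to desaturases and sterol oxidases, went from 583 ± 70.8 to 284 ± 7.91 CPM in Mettl3 cKO (−1.04 ± 0.07) and stood at −0.04 ± 0.10 in Virma cKO. Of 12 genes of SREBP processing and sterol sensing, 4 fell and 5 rose in Mettl3 cKO and 4 fell and 4 rose in Virma cKO. Mbtps1, the site-one protease that cleaves SREBP, stood at 0.04 ± 0.03 and −0.02 ± 0.04 and passed in neither. Pgrmc1, a haem-binding partner of Cyp51, rose by 0.29 ± 0.05 in Mettl3 cKO and 0.52 ± 0.05 in Virma cKO. Of 22 tested genes of fatty acid elongation, activation and related steps, 8 fell and 6 rose in Mettl3 cKO and 8 fell and 5 rose in Virma cKO. Among them, Tecr, the last reductase of the elongation cycle, had a change of −0.46 ± 0.04 and −0.75 ± 0.06, whereas Hsd17b12, the ketoreductase of the same cycle, rose by 0.25 ± 0.05 and 0.18 ± 0.05. Measured against Virma WT, Mettl3 cKO stood on the opposite side for Cyb5r3 (0.53 ± 0.08), Tecr (0.32 ± 0.04) and Hsd17b12 (−0.15 ± 0.05). Pgrmc1 (0.15 ± 0.05) kept its direction there, and Mbtps1 (0.38 ± 0.03) was called higher.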

How the data were processed

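The authors deposited raw counts per gene symbol for 8 libraries, grouped here by their titles. The submitters' processing notes list STAR 2.7.11b, Subread, FastQC 0.12.1, DESeq2 and Trim Galore, and build mm39; their roles, the annotation and strand setting are not given. Per the labels' protocols a SMARTer stranded and a VAHTS universal kit were used; which library had which is not given.

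The members, gene lists and tests were chosen with earlier results of these data known. Genes named are all 33 members, Mettl3 and Virma and, from each of 6 other lipid lists, the 2 with the highest mean CPM, of which 1 gene is not reported here. Counts were fitted with edgeR 4.0.16 in R 4.3.3 (TMM, filterByExpr, robust quasi-likelihood test, Benjamini-Hochberg over 14229 genes, threshold 0.05), all groups in 1 fit. The Virma cKO pair entered as 1 sample, its rounded mean, assumed to vary like the other groups; 3 residual degrees of freedom remained. The fit was also run on simulated counts, in which the Virma cKO libraries were drawn independently of each other. The real pair agreed within sampling noise, so no conclusion is drawn from that run. Alternatives were DESeq2 1.42.0, its size factors, total count scaling, another filter on low counts (none, or 1 CPM in a group), adjusted p of 0.01, a 2-fold minimum, 8 separate libraries, the replicate number as a block, each line on its own, a length and GC trend removed (GENCODE M21), leaving out each library and, as controls, the other line's WT; the last, for Virma cKO, was added after seeing the data. The fits of 8 separate libraries, with the replicate block and of each line on its own kept the Virma cKO pair as 2 samples. 3527 symbols had no count.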

Additional observations from a re-analysis of the deposited data

Results flagged for a closer look

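In 22 members the change in Virma cKO differed from that in Mettl3 cKO by a test of the difference itself (edgeR, Benjamini-Hochberg adjusted p under 0.05 over all genes). Among all genes tested 39.1% passed, 21.2% with a more negative and 17.9% with a more positive change in Virma cKO. As log2 values, Virma cKO change minus Mettl3 cKO change, the difference was −0.73 for Ebp, −0.63 for Mvk, −0.62 for Mvd, −0.60 for Nsdhl, −0.55 for Fasn, −0.49 for Tm7sf2, −0.48 for Acat2 and −0.47 for Srebf1. It was −0.42 for Fads2, −0.42 for Acaca, −0.39 for Pmvk, −0.37 for Cyp51, −0.35 for Lss, −0.33 for Msmo1, −0.32 for Insig1, −0.28 for Dhcr7, −0.27 for Acly, −0.26 for Acsl3 and −0.24 for Scd2. The narrowest were −0.17 for Srebf2, −0.15 for Fdft1 and 0.21 for Scap, the 1 value above 0. Tm7sf2, Dhcr7, Fdft1 and Scap were not called with DESeq2, and each also lost its call when certain single libraries were left out. With the length and GC trend removed, the difference for Pmvk shrank to −0.06 (edgeR adjusted p = 0.677). Ebp was the member called in opposite directions in the 2 cKO groups.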

How the results depend on the processing

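With all libraries kept, members called stayed within 1.5 times the reported counts except as follows. A 2-fold minimum left 1 member lower and 0 higher of 856 genes in Mettl3 cKO, 1 and 0 of 1279 in Virma cKO, 0 and 0 of 660 for the difference between the effects, and 3 and 0 of 875 between the WT groups. With Virma WT as control for Mettl3 cKO 12 members were lower and 10 higher, and with Mettl3 WT as control for Virma cKO 3 were higher. For the difference between the effects 0 members were higher with DESeq2 (of 3593 genes, against 5569), without a filter and at an adjusted p of 0.01, and 3 with total count scaling. Between the WT groups 1 member was higher with DESeq2 (of 4493 genes, against 6773), at an adjusted p of 0.01 and with the length and GC trend removed. The causes were not tested.

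Leaving out 1 library at a time gave 22 to 24 members lower and 2 to 4 higher in Mettl3 cKO, 27 to 28 lower and 1 higher in Virma cKO, 18 to 23 lower and 0 to 3 higher for the difference between the effects, and 18 to 21 lower and 0 to 6 higher between the WT groups.

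In Mettl3 cKO directions turned for Sc5d (0.0048) and Acaca (0.15) with the length and GC trend removed. They turned with Virma WT as control for Fdps (0.31), Fdft1 (0.36), Dhcr7 (0.95), Msmo1 (0.59), Mvd (0.75), Pmvk (0.82), Acat2 (0.28), Srebf1 (0.14), Srebf2 (0.013), Fads1 (0.011) and Fads2 (0.033). Fdps was called in Virma cKO with the line on its own (−0.61, edgeR adjusted p = 0.0166) and with 8 separate libraries (−0.59, 0.0332).

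The labels do not say that replicate numbers pair libraries, and same-numbered libraries did not deviate together (correlation across genes 0.0155 in the Mettl3 and −0.0182 in the Virma groups). With the replicate number as a block, in 8 separate libraries, 23 members were lower and 3 higher in Mettl3 cKO (8343 genes), 29 and 1 in Virma cKO (8960), 23 and 1 for the difference between the effects (6862), and 20 and 3 between the WT groups (7390). Depth limits Fdps, Insig2 and Hsd17b7, the members with the fewest counts.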

Other observations

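Genes that store, move or break down the products of these routes went in both directions, in shares to be read against 28.0% lower and 27.1% higher over all genes in Mettl3 cKO and 26.1% and 26.2% in Virma cKO. Of 16 genes of sterol transport, storage and efflux, 5 fell and 5 rose in Mettl3 cKO and 5 fell and 6 rose in Virma cKO. Npc2, which carries cholesterol out of lysosomes, had a change of −0.32 ± 0.05 and −0.30 ± 0.06, and Soat1, which makes cholesterol esters, one of −0.39 ± 0.05 and −0.26 ± 0.06. Of 12 tested genes of fatty acid oxidation, 4 fell and 4 rose in Mettl3 cKO, and 6 fell and 3 rose in Virma cKO. Hadh, a mitochondrial dehydrogenase of this route, had a change of −0.18 ± 0.05 and −0.82 ± 0.06, and Hadha, a subunit of the trifunctional protein, stood at 0.03 ± 0.04 in Mettl3 cKO and had a change of −0.25 ± 0.05 in Virma cKO. Of 15 genes of glycerolipid and phospholipid synthesis, 3 fell and 6 rose in Mettl3 cKO and 5 fell and 1 rose in Virma cKO. Agpat3, an acyltransferase, rose by 0.84 ± 0.05 in Mettl3 cKO and by 0.15 ± 0.05 in Virma cKO. Ptdss2, a phosphatidylserine synthase, rose by 0.33 ± 0.05 in Mettl3 cKO and stood at −0.08 ± 0.06 in Virma cKO. Measured against Virma WT, Npc2 (−0.01 ± 0.05) and Hadh (−0.11 ± 0.05) did not pass in Mettl3 cKO, and Hadha (0.11 ± 0.04) was higher. Soat1 (−0.42 ± 0.05), Agpat3 (0.20 ± 0.04) and Ptdss2 (0.36 ± 0.05) kept their directions there. All are log2 fold changes ± SE from edgeR's quasi-likelihood test.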
